A study of Homo sapiens with 60 samples.

Results

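STC1, STC2 and NIBAN1 are 3 of the 60675 Ensembl gene identifiers in the deposited count table. They were selected on measured values: their levels across the vehicle and every extract and dose of these samples were known when they were chosen, so their levels and folds are given here as descriptions, with no test. All 3 passed the low-count filter that left 17268 genes, and each had at least 115 estimated read pairs in every library. The cells were A549, an established human lung carcinoma line, cultured for 24 h with a water extract or with DMSO vehicle alone. The samples label the vehicle as 0.1% DMSO, whereas the series' design text gives 2%. For 6 extracts there were 3 libraries at each of 3 dose levels, termed high, medium and low. These were Citri Unshius Pericarpium, Cimicifugae Rhizoma, Bupleuri Radix, Yijung-tang and Banhasasim-tang at 500, 100 and 20 µg/mL, and Aconiti Lateralis Radix Preparata at 360, 72 and 14.4 µg/mL. The name tang marks a decoction of several herbs. The vehicle group also had 3 libraries, and Bojungikgi-tang had 1 library at each of 500, 100 and 20 µg/mL. The extracts are called below by their first word. The design text sets a lower dose series for an extract that reached an inhibitory concentration below the usual top dose. No label says whether the libraries of a group came from separate cultures, so the spread between them may be technical.

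Stanniocalcins are secreted glycoprotein hormones, first known from a fish gland where they restrain calcium uptake. In mammals STC1 and STC2 act mainly near the cells that release them, and both bind and inhibit the protease PAPP-A, which frees insulin-like growth factors by cutting IGFBP4. STC2 is a known target of ATF4, the transcription factor of the integrated stress response, in which kinases that sense stress phosphorylate eIF2 and slow translation. STC1 is known as a gene induced by hypoxia. NIBAN1, also called FAM129A, is a cytoplasmic protein induced by stress that is linked to eIF2 phosphorylation and translation.

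In GRCh38 (GENCODE 29), STC2 (ENSG00000113739) lies on the minus strand of chromosome 5 at 173314713 to 173329503. NIBAN1 (ENSG00000135842) lies on the minus strand of chromosome 1 at 184790724 to 184974550. Both are protein-coding, and their exons cover 6128 and 8372 bases. Because STC2 and NIBAN1 varied together over the groups, the 250 bases before their RefSeq starts (GRCh38.p14) were searched on both strands for the ATF4 with C/EBP composite TGATGNAA, the hypoxia response core ACGTG and the XBP1 site TGACGTGG. The table of promoters held 2 of the 3 members. None of these letters stood in either window. Over all 35116 promoters of the table, windows of the same length held them in 3.14%, 18.5% and 0.612% of cases. The window of STC2 lies inside the gene as GENCODE draws it, so its letters are not shown. Of the NIBAN1 window, the 208 bases that lie before GENCODE's start, chr1:184974551-184974758, read as follows on the minus strand, and are shown because they are what was searched. They hold no capitals, since no motif was found.
NIBAN1: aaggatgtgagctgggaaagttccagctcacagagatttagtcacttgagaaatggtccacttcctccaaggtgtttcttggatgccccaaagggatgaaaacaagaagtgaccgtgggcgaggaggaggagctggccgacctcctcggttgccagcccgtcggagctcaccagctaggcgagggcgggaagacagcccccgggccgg

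The libraries held 17793655 to 30188211 estimated counts (median 25758911). All 8 A549 epithelial markers exceeded 1 CPM (the count scaled to library size) in every library, and the 7 blood and endothelial markers together reached at most 0.352 CPM, with CD3E at 0 in all 60. All 60 sample titles name the same batch, BatchB. The first part of the sample name in the descriptions, called here the set label, differs between treatments. It is B1 for the vehicle, 5 for Citri and Cimicifugae, 6 for Bupleuri and Aconiti, 7 for Yijung and Banhasasim, and 8 for Bojungikgi. No label says what this part marks. No vehicle library shares a set label with an extract, so set and treatment cannot be told apart against vehicle, and values within a set are given beside those. Citri medium replicate 1 stood apart: the mean log2 level of genes with long exons minus that of genes with short exons was 0.93 there, against 1.78 and 1.77 in the other Citri medium libraries. In 14 of the 19 groups of 3, the library with the lowest NIBAN1 level also had the lowest balance. The same count was 14 for STC2 and 12 for STC1. The library with the highest level had the highest balance in fewer groups, 9 for NIBAN1, 8 for STC2 and 9 for STC1. STC2 and NIBAN1 are themselves among the genes with long exons, and these counts were not taken over all genes. Nothing particular to the members is therefore read from them.

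STC2 was the most abundant of the 3. Per kilobase of exon, its vehicle level was 4.66 ± 0.0592 CPM (SD, n = 3), against 1.81 ± 0.0833 for STC1 and 1.19 ± 0.0696 for NIBAN1. On the plain CPM scale, which is used from here on, the vehicle libraries had 28.2, 28.9 and 28.4 CPM of STC2, a mean of 28.5 ± 0.363 (SD, n = 3). Aconiti high gave 172.1, 134 and 141 CPM, Aconiti medium 95.7, 87.7 and 87.6, and Aconiti low 45.1, 42.3 and 41.3. All 9 Aconiti libraries lay above all vehicle libraries, and the 3 doses did not overlap each other. Against vehicle, the fitted fold was 5.22 at the high dose (log2 2.38, SE 0.083), 3.17 at the medium dose (log2 1.66, SE 0.082) and 1.5 at the low dose (log2 0.59, SE 0.081).

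Under Yijung the medium dose was the higher. STC2 stood at 83.5, 89.2 and 86.1 CPM at the medium dose and at 59.1, 56.2 and 63.4 CPM at the high dose. Every high-dose library was below every medium-dose library (log2 difference -0.54, SE 0.079), and both doses lay above the vehicle. The fold against vehicle was 3.02 at the medium dose (log2 1.60, SE 0.082) and 2.09 at the high dose (log2 1.06, SE 0.082). Yijung low gave 32.4, 30.9 and 27.8 CPM and overlapped the vehicle.

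Ordered by mean STC2, the 19 groups ran from Aconiti high (149 ± 20.4 CPM, SD, n = 3) through Aconiti medium (90.3 ± 4.63), Yijung medium (86.3 ± 2.86), Yijung high (59.6 ± 3.59) and Aconiti low (42.9 ± 1.98) to the rest, which lay between 23.2 and 33.1 CPM. Aconiti medium and Yijung medium overlapped, and the other neighbours among these 5 did not. Of all 18 neighbouring pairs, 12 overlapped. Banhasasim high (33.1 ± 0.173 CPM) and Bupleuri high (31.9 ± 0.537 CPM) also lay wholly above the vehicle, by log2 0.21 (SE 0.082) and 0.16 (SE 0.082). The groups wholly below it numbered 6: the medium and low doses of Citri, Cimicifugae and Bupleuri. For these groups the share of all genes with libraries apart from the vehicle was not taken. At the high doses of Citri, Cimicifugae and Bupleuri that share was 15.8%, 28.9% and 26.6%, in either direction. The lowest single library was Citri medium replicate 1, at 18.7 CPM, with 25.6 and 25.3 CPM in the others of that group.

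**Figure D1:**
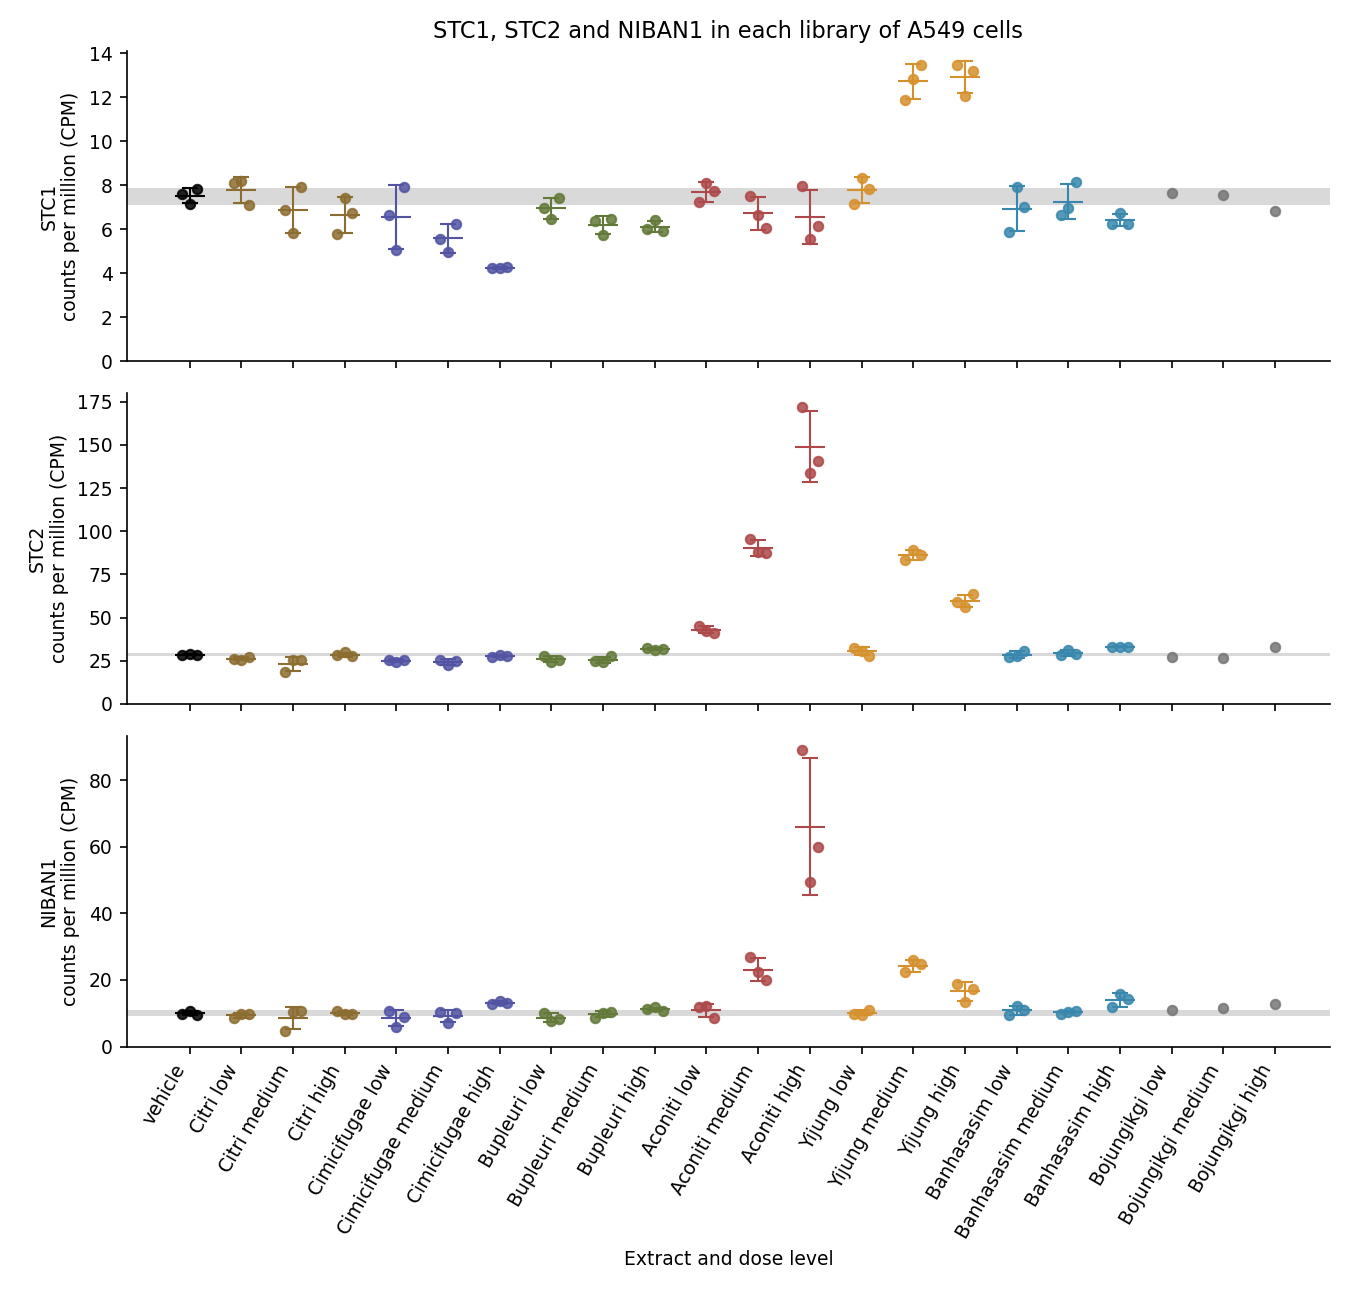
Levels of STC1, STC2 and NIBAN1 in CPM (y axes, each from 0) in the 60 libraries, by extract and dose (x axis). Points are libraries, horizontal marks and bars are the mean and SD of 3 libraries, and the grey band is the range of the vehicle. STC2 and NIBAN1 are highest in Aconiti high (149 and 66.1 CPM), whereas STC1 is highest in Yijung high and medium (12.9 and 12.7 CPM).

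NIBAN1 had 9.68, 10.6 and 9.59 CPM in the vehicle (9.97 ± 0.583, SD, n = 3). At the high dose of Aconiti it had 89.0, 49.4 and 59.8 CPM, a mean of 66.1 ± 20.5 (SD, n = 3). The fold against vehicle was 6.61 (log2 2.72, SE 0.196). Those 3 libraries were all far above the vehicle and spread widely among themselves. Replicate 1, the highest, had a long-to-short balance of 1.80, against 1.4 and 1.42 in the other 2. The log2 fold was 2.46 without that replicate and 3.07 when the balance entered the fit. The medium dose gave 26.9, 22.3 and 20.0 CPM, a fold of 2.31 (log2 1.21, SE 0.196). The low dose gave 11.9, 12.1 and 8.63 CPM and overlapped the vehicle, unlike STC2 at that dose.

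Yijung medium gave 22.3, 25.9 and 24.7 CPM of NIBAN1, a fold of 2.43 against vehicle (log2 1.28, SE 0.195). Yijung high gave 18.9, 13.5 and 17.2 CPM, a fold of 1.65 (log2 0.72, SE 0.198). The high dose lay wholly below the medium dose (log2 difference -0.56, SE 0.189) and wholly above the vehicle. Smaller excesses with no overlap stood at Banhasasim high (14 ± 1.99 CPM, log2 0.49, SE 0.199), Cimicifugae high (13.2 ± 0.505 CPM, log2 0.40, SE 0.198) and Bupleuri high (11.2 ± 0.492 CPM, log2 0.17, SE 0.200). No group lay wholly below the vehicle. In the order of means, Yijung medium (24.3 ± 1.82) and Aconiti medium (23.1 ± 3.5) overlapped, as did Yijung high (16.5 ± 2.74) and Banhasasim high. Of the 18 neighbouring pairs, 15 overlapped. NIBAN1 was also low in the Citri medium library that stood apart, 4.76 CPM against 10.5 and 10.7.

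STC1 (ENSG00000159167), also protein-coding, lies on the minus strand of chromosome 8 at 23841915 to 23854807 (GRCh38), with 4149 bases of exon, and followed another order. The vehicle libraries had 7.58, 7.13 and 7.81 CPM (7.51 ± 0.346, SD, n = 3). Yijung high gave 13.4, 12.1 and 13.2 CPM and Yijung medium 11.9, 12.8 and 13.5 CPM. These 6 libraries were above all other libraries, with folds of 1.72 (log2 0.78, SE 0.122) and 1.69 (log2 0.76, SE 0.122) against vehicle. The high and medium doses overlapped each other (log2 difference 0.02, SE 0.118), whereas STC2 and NIBAN1 were lower at the high dose; whether the genes differed in this was not tested. Yijung low, at 7.14, 8.35 and 7.84 CPM, overlapped the vehicle.

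Cimicifugae lay at the other end for STC1. Its high dose gave 4.22, 4.22 and 4.28 CPM, its medium dose 5.58 ± 0.651 CPM and its low dose 6.55 ± 1.44 CPM (SD, n = 3). The high dose was 1.77-fold lower than the vehicle (log2 -0.82, SE 0.130), and it was wholly below every other group. The medium dose was also wholly below the vehicle (log2 -0.43, SE 0.127), and the low dose overlapped it. Bupleuri high (6.11 ± 0.262 CPM), Bupleuri medium (6.18 ± 0.393 CPM) and Banhasasim high (6.4 ± 0.275 CPM) lay wholly below the vehicle by smaller margins, log2 -0.30 (SE 0.127), -0.28 (SE 0.127) and -0.23 (SE 0.127). All 3 Aconiti doses overlapped the vehicle: the high dose had 7.94, 5.55 and 6.15 CPM, and its replicate 1 was again the highest. Of the 18 neighbouring pairs in the order of STC1, 16 overlapped; the breaks lay below Yijung medium and above Cimicifugae high.

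**Figure D2:**
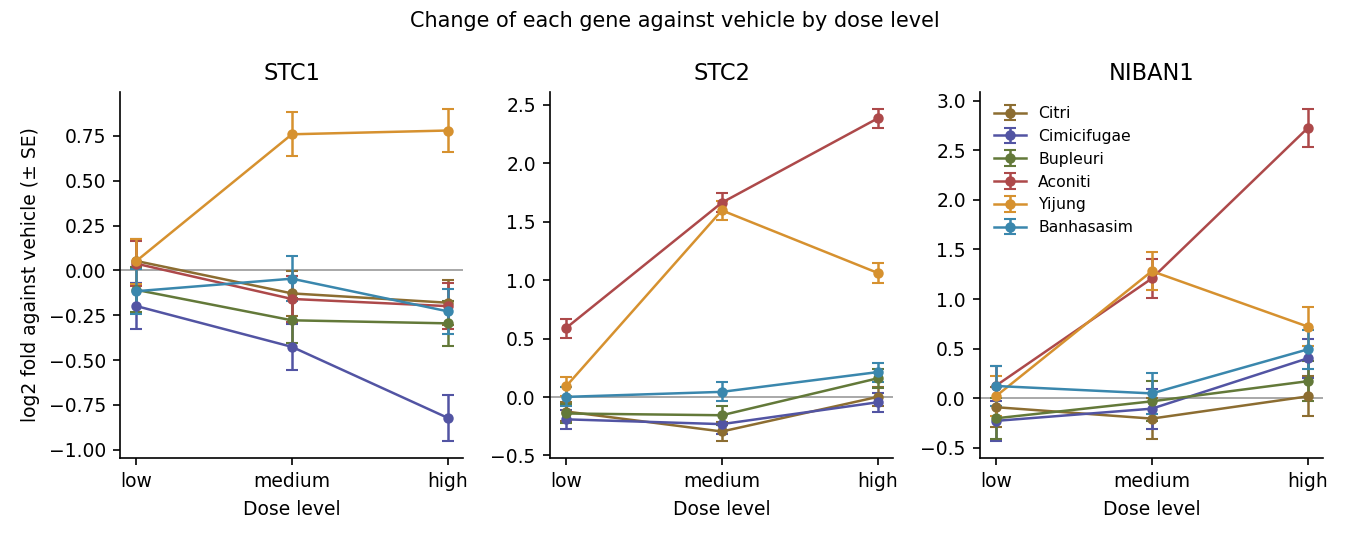
Log2 fold of each member against vehicle (y axes, different ranges) at the low, medium and high dose level (x axis) of 6 extracts. Points are fitted values for groups of 3 libraries. Bars are ± SE from the fit of all 57 libraries, which shares its estimate of the spread. They do not show a group's own spread. STC2 under Aconiti climbs from 0.59 to 1.66 to 2.38, whereas under Yijung STC2 and NIBAN1 peak at the medium dose (1.60 and 1.28); the doses of Aconiti are 360, 72 and 14.4 µg/mL and those of the others 500, 100 and 20 µg/mL.

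At the high doses of the 6 extracts and the medium doses of Aconiti and Yijung, all 3 genes lay wholly on the same side of the vehicle only under Yijung. All 3 lay wholly above it in Yijung high, where 24.0% of all genes tested had libraries apart in either direction, and in Yijung medium, where 26.3% did. STC2 and NIBAN1, 2 of the 3, lay above it in Aconiti high (background 41.6%) and Aconiti medium (27.9%). In Bupleuri high (26.6%) and Banhasasim high (17.3%) those 2 were above and STC1 below. In Cimicifugae high (28.9%) NIBAN1 was above, STC1 below and STC2 overlapping. In Citri high (15.8%) all 3 overlapped. Since the members were chosen on these same contrasts, nothing is read from these counts.

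Within a set label the contrasts ranged from large to small. For these contrasts, and for the doses compared within an extract above, the share of all genes with libraries apart was not taken. Nothing is therefore read from which members did not overlap. Aconiti high against Bupleuri high, at 360 and 500 µg/mL, gave log2 differences of 2.22 (SE 0.082) for STC2 and 2.55 (SE 0.193) for NIBAN1, with no overlap, and 0.10 (SE 0.128) with overlap for STC1. At the medium doses, 72 and 100 µg/mL, the differences were 1.82 (SE 0.082), 1.24 (SE 0.195) and 0.12 (SE 0.128). Even at the low doses, 14.4 and 20 µg/mL, STC2 was wholly higher under Aconiti, by 0.73 (SE 0.082). Yijung against Banhasasim, matched at 500 µg/mL, gave 1.01 (SE 0.124) for STC1 and 0.85 (SE 0.081) for STC2 with no overlap, and 0.23 (SE 0.194) with overlap for NIBAN1. Matched at 100 µg/mL, it gave 0.81 (SE 0.122) for STC1, 1.55 (SE 0.082) for STC2 and 1.23 (SE 0.195) for NIBAN1, none overlapping. Cimicifugae against Citri at 500 µg/mL gave an STC1 difference of -0.64 (SE 0.129) and a NIBAN1 difference of 0.38 (SE 0.195), both without overlap. Inside the Aconiti series, where all doses share a set, high exceeded low by 1.79 (SE 0.081) for STC2 and by 2.60 (SE 0.194) for NIBAN1.

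Bojungikgi had 1 library a dose and no replicate check. STC2 was 27.4, 26.5 and 33.0 CPM at the low, medium and high dose, and NIBAN1 10.9, 11.5 and 12.7 CPM. STC1 was 7.65, 7.55 and 6.82 CPM. On the log2(CPM + 1) scale, the high-dose library differed from the vehicle mean by 0.20 for STC2, 0.32 for NIBAN1 and -0.12 for STC1.

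Over the 19 group means of log2 CPM, STC2 and NIBAN1 correlated at r = 0.947, STC1 and STC2 at 0.407, and STC1 and NIBAN1 at 0.204. Without Aconiti high these were 0.933, 0.607 and 0.444 over 18 means. The points share libraries and scaling, and the 3 doses of an extract are not independent, so the values describe only. The genes with a symbol whose means were most like STC2 were GARS1 (r = 0.990), MTHFD2 (0.990), CARS1 (0.989), PSAT1 (0.986) and NARS1 (0.978). GARS1, CARS1 and NARS1 encode transfer RNA synthetases, MTHFD2 a mitochondrial folate enzyme and PSAT1 a serine synthesis enzyme. GARS1 stood at 235.7 ± 2.94 CPM in the vehicle, 326 ± 15.7 in Yijung medium, 296 ± 22.2 in Yijung high and 437 ± 21.6 in Aconiti high (SD, n = 3). Without Aconiti high, 4 of those 5 stayed among the top 5.

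For NIBAN1 the nearest genes were CEBPG (0.980), TMEM268 (0.978), SLC6A9 (0.973), TCEA1 (0.968) and RAB39B (0.967). CEBPG is a partner of ATF4 and SLC6A9 a glycine transporter. SLC6A9 stood at 8.52 ± 0.66 CPM in the vehicle, 15.5 ± 0.535 in Yijung medium and 27.2 ± 2.5 in Aconiti high. Only 1 of the 5, CEBPG, stayed in the top 5 without Aconiti high. For STC1 they were TSC22D1 (0.968), FAM107B (0.952), KCNF1 (0.926), MAP2K1 (0.924) and HAS2 (0.921), of which 2 stayed. HAS2, a hyaluronan synthase, stood at 5.34 ± 0.181 CPM in the vehicle, 11.4 ± 0.652 in Yijung medium, 10.5 ± 0.0574 in Yijung high and 4.36 ± 0.583 in Aconiti high. MAP2K1 encodes the kinase MEK1.

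**Figure D3:**
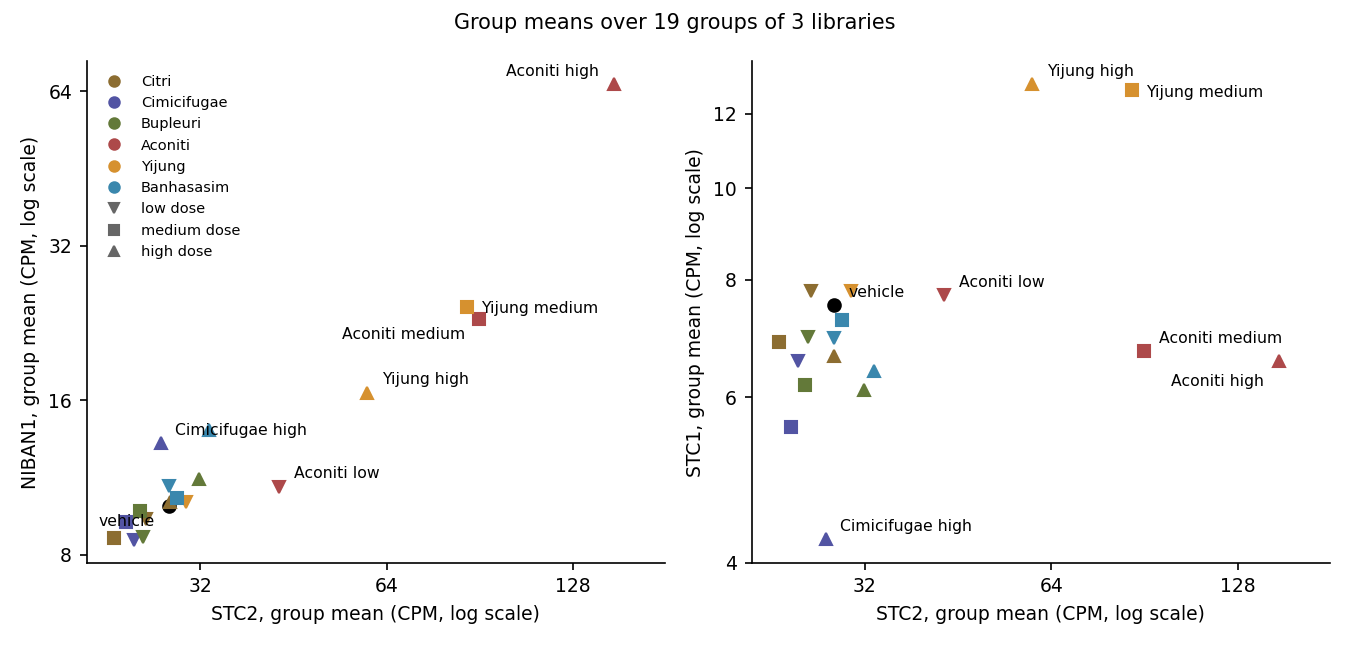
Group means of NIBAN1 (left) and STC1 (right) against STC2, in CPM on log axes, for 19 groups of 3 libraries; colour gives the extract and shape the dose level. NIBAN1 and STC2 lie along one band (r = 0.947 on the log2 scale), whereas STC1 is high in both upper Yijung doses and near the vehicle level in Aconiti high and medium.

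The pathways around the members were read from 6 gene lists that hold none of them. Genes were called with edgeR's quasi-likelihood test at a Benjamini-Hochberg adjusted p under 0.05 over all 17268 genes, and the lists were chosen with earlier results of these data known. The integrated stress response list holds the ATF4 arm and its amino acid genes, and 35 of its 36 genes were tested. In Aconiti high, 30 rose and none fell, with a median log2 fold of 1.02; over all genes 32.7% were called and the median was -0.01. In Aconiti medium, 26 rose and none fell (median 0.56; 2.29% of all genes called, median 0.01). In Yijung medium, 25 rose and none fell (median 0.47; 7.85% called, median 0.00). In Yijung high, 20 rose and none fell (median 0.33; 7.09% called, median 0.00), and 12 were called without Yijung high replicate 2.

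TRIB3, a pseudokinase that restrains ATF4, rose from 66.7 ± 3.91 CPM to 415 ± 44.3 CPM in Aconiti high (log2 2.64, SE 0.111, edgeR adjusted p = 7.67e-23). DDIT3, which encodes CHOP, rose from 9.55 ± 0.582 to 56.2 ± 4.44 CPM there (log2 2.56), SESN2, a leucine sensor, by log2 2.08 and CHAC1, which degrades glutathione, by log2 2.06. In Aconiti medium CHAC1 (log2 1.56), TRIB3 (1.33), DDIT3 (1.17) and NUPR1 (1.15) led. ATF3 led in Yijung medium, from 8.38 ± 0.242 to 21.8 ± 2.15 CPM (log2 1.38), followed by PPP1R15A (1.14), the phosphatase subunit that reverses eIF2 phosphorylation, CHAC1 (1.06) and DDIT3 (1.05). In Yijung high CHAC1 (0.73), PPP1R15A (0.72), CEBPB (0.70) and GDF15 (0.68) led. CEBPB lost its call in 5 of 14 alternatives, Yijung high replicate 2 left out among them, with adjusted p up to 0.54 in edgeR.

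Where STC2 and NIBAN1 were lower in Yijung high than in Yijung medium, genes of the same list fell. In that direct comparison 12 of the 35 fell and none rose, with a median log2 difference of -0.18 against 0.00 over all genes, of which 1.08% were called. That count was 21 when the length balance entered the fit, 6 without the low-count filter and 2 when only those 6 libraries were fitted. Aconiti high against medium gave 24 risen and none fallen (median 0.41; 12.5% of all genes called). Within sets, 29 rose in Aconiti high against Bupleuri high (23.1% of all genes called) and 23 in Aconiti medium against Bupleuri medium (1.26%). In Yijung against Banhasasim 13 rose at the high dose (4.79%) and 26 at the medium dose (7.04%). The high-dose count was 23 when the length balance entered the fit and 7 with only those 6 libraries. No gene of the list fell in these 4 comparisons. All 6 direct comparisons of the list were added after its values against vehicle had been seen.

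The share of counts from mitochondrially encoded genes moved with Aconiti as well. It was 8.3% ± 0.342 in the vehicle, 8.68% ± 0.887 at the low dose, 14.1% ± 0.983 at the medium dose and 17.5% ± 1.31 at the high dose (SD, n = 3). With those genes removed before scaling, the log2 folds in Aconiti high were 2.39 for STC2 and 2.73 for NIBAN1, and 30 genes of the stress list were again called. In Yijung medium and high the share was 7.62% ± 1.33 and 9.25% ± 0.0474.

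In the endoplasmic reticulum folding list, all 22 genes were tested. In Aconiti high 8 rose and 1 fell (median 0.03; 32.7% of all genes called), and in Aconiti medium 3 rose and none fell (2.29%). In Yijung medium 1 rose and 3 fell (7.85%), and in Yijung high (7.09%) none was called by edgeR or DESeq2, with 2 at an unadjusted p under 0.05. These counts were 15, 8, 12 and 5 when the length balance entered the fit. ERN1, the sensor that splices XBP1 messenger RNA, rose from 15.3 ± 1.34 to 39.2 ± 6.03 CPM in Aconiti high (log2 1.36). XBP1 rose by log2 1.09, HERPUD1, a degradation factor, by 1.02 and DNAJB9, a lumenal co-chaperone, by 0.96. In Aconiti medium XBP1 (0.59), ERN1 (0.41) and HERPUD1 (0.37) rose, and the last 2 lost their calls in some alternatives, each when vehicle replicate 1 was left out. In Yijung medium the chaperone PDIA4 fell by log2 0.31 (edgeR adjusted p = 1.12e-05), from 249 ± 11.5 to 200.7 ± 9.29 CPM. CALR (log2 -0.33), HSP90B1 (-0.16) and ERN1 (0.34), also called there, lost their calls in 4, 6 and 7 of 14 alternatives.

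Hypoxia targets, a class to which STC1 belongs, held calls in both directions, as did all genes. In Aconiti medium, however, no hypoxia target was called lower. Of 25 tested, 6 rose and 5 fell in Aconiti high (32.7% of all genes called, 2943 higher and 2709 lower). In Aconiti medium 2 rose (2.29%), in Yijung high 4 rose and 3 fell (7.09%), and in Yijung medium 2 rose and 4 fell (7.85%); the medians were 0.04, -0.01, -0.01 and 0.03. VEGFA, an angiogenic growth factor, rose from 38.9 ± 1.67 to 70.7 ± 5.86 CPM in Aconiti high (log2 0.86), by 0.50 in Aconiti medium and by 0.30 in Yijung medium. EGLN3, a prolyl hydroxylase that marks HIF for decay, fell by 0.73 in Aconiti high, and PFKFB3, a glycolytic regulator, fell by 0.45. The glucose transporter SLC2A1 fell, by log2 0.35 in Yijung medium and 0.24 in Yijung high, and ADM fell by 0.40 in Yijung high. Of the 4 genes that rose in Yijung high, only LDHA is named here. P4HA2 (-0.30) and EGLN3 (-0.40) were called lower in Yijung medium and PFKFB4 (-0.49) lower and LDHA (0.26) higher in Yijung high. SLC2A1 in Yijung high and these 4 lost their calls in at least 1 alternative; fitted on only the 6 libraries compared, Yijung high gave 1 call in place of 7.

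On the PAPP-A and insulin-like growth factor axis, 13 of 16 genes were tested. In Aconiti high 3 rose and 2 fell, and in Yijung high 2 rose and 1 fell, where 32.7% and 7.09% of all genes were called. PAPPA, the protease that stanniocalcins inhibit, was not called in any of the 8 comparisons with vehicle. It stood at 169 ± 19.1 CPM in the vehicle, 166 ± 57.2 in Aconiti high (log2 -0.03, SE 0.232) and 166.5 ± 45.3 in Yijung high (log2 -0.03, SE 0.232). When the length balance entered the fit, its log2 fold in Aconiti high was 0.37 (edgeR adjusted p = 0.000802). IGFBP3 fell from 171 ± 1.44 to 121 ± 3.88 CPM in Aconiti high (log2 -0.51, edgeR adjusted p = 8.79e-11) and to 129 ± 12.3 CPM in Yijung high (log2 -0.41). IRS1 (-0.63), IGFBP6 (0.46) and IGFBP4 (0.32), the binding protein that PAPP-A cuts, were also called in Aconiti high, and lost their calls in 2, 3 and 6 of 14 alternatives. The count of 5 in Aconiti high was 3 without Aconiti high replicate 2. IGF2 rose in Yijung high from 4.92 ± 0.816 to 7.91 ± 0.683 CPM (log2 0.69), a call lost without vehicle replicate 2. None of the 13 was called in Aconiti medium by edgeR or DESeq2, with 0 at an unadjusted p under 0.05. In Yijung medium 1 was called; there the count was 0 without vehicle replicate 1 and 2 without Yijung medium replicate 1 or 3 or Citri medium replicate 1.

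**Figure D4:**
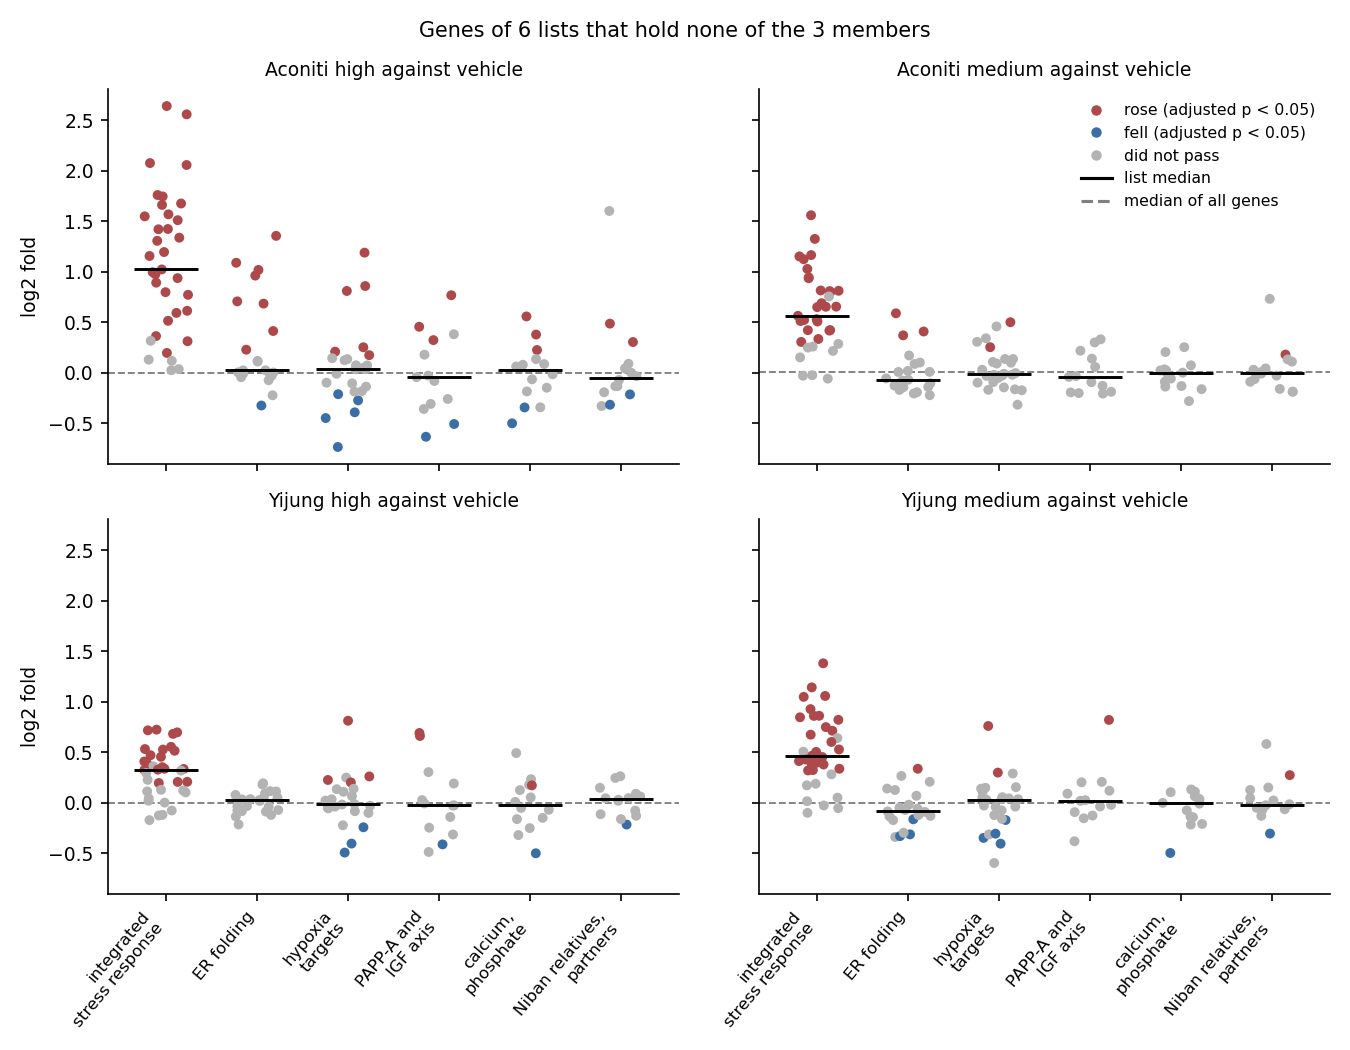
Log2 fold against vehicle (y axis) of the tested genes of 6 lists (x axis) in 4 comparisons of 3 against 3 libraries; red points rose and blue points fell at an edgeR adjusted p under 0.05, grey points did not pass, black bars are list medians and the dashed line is the median of all genes. The median of the integrated stress response list is 1.02 in Aconiti high, 0.56 in Aconiti medium, 0.33 in Yijung high and 0.47 in Yijung medium, and the medians of the other lists lie between -0.08 and 0.04.

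Of the calcium and phosphate genes, the oldest known field of stanniocalcins, 14 of 17 were tested. In Aconiti high 3 rose and 2 fell, where 32.7% of all genes were called: the calcium channel subunits ORAI3 (log2 0.56) and ORAI1 (0.38) were higher, and the reticulum calcium pump ATP2A2 (-0.50) and the calcium sensor STIM2 (-0.34) lower. None was called in Aconiti medium by edgeR or DESeq2, with 1 at an unadjusted p under 0.05. In Yijung medium (7.85%) UCP2 fell, and in Yijung high (7.09%) UCP2 fell and SLC20A1 rose. UCP2 is a mitochondrial carrier rather than a calcium channel; it fell from 43.2 ± 0.589 to 30.6 ± 1.14 CPM in Yijung medium and to 30.5 ± 5.22 CPM in Yijung high. SLC20A1, a phosphate transporter, had log2 0.17 and lost its call in 3 of 14 alternatives, Yijung high replicate 2 left out among them, where the count was 1; it was 4 without Citri medium replicate 1.

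Among 14 relatives and partners of NIBAN1, all tested, NIBAN2 was called in none of the 8 comparisons: 188 ± 3.18 CPM in the vehicle and 188 ± 17 CPM in Aconiti high (log2 0.00, SE 0.071). In Yijung high and medium its log2 fold was -0.11 and -0.13, and after adjusting for the length balance -0.16 and -0.15 (edgeR adjusted p = 0.0117 and 0.0197). MDM2, a ubiquitin ligase, rose by log2 0.31 in Aconiti high, from 174 ± 3.04 to 215 ± 24.7 CPM. RPS6KB1 (-0.32), a growth kinase, and EIF2AK1 (-0.21), an eIF2 kinase, were called lower there; without Aconiti high replicate 2 both lost their calls and the count of 4, where 32.7% of all genes were called, became 2. NPM1, a nucleolar chaperone, was called higher in Yijung medium (0.28) and lost the call in 6 of 14 alternatives.

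In the other 4 extracts at the high dose, few of the 123 tested genes of the 6 lists were called. Cimicifugae high gave 5 risen and 3 fallen (1.96% of all genes called), of which 3 risen were stress response genes; leaving out 1 library of either group left between 2 and 5 calls, and Citri medium replicate 1, 10. Bupleuri high gave 2 risen and 1 fallen (0.712%), or 1 call without Bupleuri high replicate 2. No list gene was called in Banhasasim high (0.185%) or Citri high (0.0463%) by edgeR. At an unadjusted p under 0.05, edgeR had 15 and 4 of the 123, and DESeq2 called 3 and none after adjustment.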

How the data were processed

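RNA from A549 cells was sequenced as 100 base paired-end reads from a directional messenger RNA kit, from RNA of integrity number above 7, per the labels' protocols. Per the submitters' processing notes, the tools named are RSEM 1.3.3, STAR 2.7.3a, FastQC 0.11.9 and Trim Galore 0.6.5, with GRCh38 as the build; the annotation release and strand setting are not given in the sources used here. The authors deposited expected counts per Ensembl gene, estimates that share ambiguous reads and that need not be whole (9.37% were not). The table has 269 sample columns, of which 60 matched this series' samples and 209 were not used. Identifiers were matched to GENCODE 29 (57055 of 60675).

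Counts were rounded. One edgeR 4.0.16 quasi-likelihood fit (R 4.3.3, TMM scaling, default low-count filter) used 57 libraries in 19 groups, with 38 residual degrees of freedom; the single Bojungikgi libraries stayed out. SE is the size of the log2 fold over the square root of F. CPM uses TMM-scaled library sizes. The libraries nearest to each other within a group differed by a chi-square of 2.03 per degree of freedom. Each library was counted as 1 sample, although this value cannot tell separate cultures from technical repeats. P-values set a difference only against the spread between these samples. That spread was estimated over all 57 libraries, also those outside the comparison. On simulated data for Aconiti high against vehicle (16937 genes), the fit recovered 76.6% of genes lowered and 92% of genes raised by 1 log2 unit. That simulation gave every gene the same spread and changed few genes, whereas 32.7% of all genes were called in the real comparison. Its recovery need not hold there. The long-to-short balance compares genes with exons over 6000 and under 1500 bases. Named list genes are up to 4 called genes per list and comparison with the largest log2 fold and at least 5 CPM in the higher group, plus NIBAN2 and PAPPA, and some genes that this rule names are not reported here; the likest genes are the 5 of highest Pearson r. The members and lists were chosen with earlier results of these data known. Alternatives were RLE scaling, DESeq2 1.42.0, no low-count filter, a length balance covariate, mitochondrial genes removed, only the 6 libraries compared, a replicate block and each library left out.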

Additional observations from a re-analysis of the deposited data

How the results depend on the processing

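Over 588 refits of the members' folds, 584 moved by less than the spread of single libraries in the groups compared. No fold changed sign where the libraries did not overlap. Many refits left out a single library, which can hardly move a group's mean by that spread. Some of these left out a library of neither group. The count of 584 is therefore no measure of how robust the folds are. The folds that moved all did so with the length balance as a covariate: NIBAN1 in Aconiti medium 1.49 (1.21 as reported) and Bupleuri high 0.32 (0.17), and STC2 in Aconiti medium 1.75 (1.66) and Bupleuri high 0.21 (0.16). STC2 in Aconiti high ranged from 2.27 to 2.50, NIBAN1 there from 2.46 to 3.07, STC1 in Yijung high from 0.74 to 0.84 and STC1 in Cimicifugae high from -0.86 to -0.79.

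Counts of list genes called depended more on the fit. With the balance covariate, all lists gave 4 in Banhasasim high (0 as reported), 14 in Bupleuri high (3), 19 in Cimicifugae high (8) and 1 in Citri high (0). Under it the reticulum list gave 15 in Aconiti high, 8 in Aconiti medium, 5 in Yijung high and 12 in Yijung medium. Hypoxia targets gave 18 in Aconiti high (11), 4 in Aconiti medium and 11 in Yijung medium (6), and calcium genes 6 in Yijung high and 4 in Yijung medium. The stress response list gave 23 in Yijung high against Banhasasim high and 21 in Yijung high against medium. Niban partners gave 2 in Aconiti medium, 6 in Yijung high and 5 in Yijung medium, and the PAPP-A axis 5 in Yijung high and 3 in Yijung medium. PAPPA in Aconiti high turned from -0.03 to 0.37. The cause was not tested.

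Without the low-count filter, all lists gave 1 in Bupleuri high and 3 in Cimicifugae high; calcium genes 1 in Yijung high; reticulum genes 2 in Yijung medium; hypoxia targets 1 in Aconiti medium and 4 in Yijung high; the stress list 6 in Yijung high against medium; and Niban partners 0 in Aconiti medium, 0 in Yijung high and 1 in Yijung medium. Fitted on only the 6 libraries compared, all lists gave 4 in Banhasasim high, 17 in Bupleuri high, 25 in Cimicifugae high and 2 in Citri high. Calcium genes then gave 1 in Yijung high, reticulum genes 2 in Yijung medium, hypoxia targets 1 in Yijung high, and the stress list 7 in Yijung high against Banhasasim high and 2 against Yijung medium. Niban partners gave 2 in Aconiti high, 0 in Yijung high and 1 in Yijung medium, and the PAPP-A axis 1 in Aconiti medium and 0 in Yijung medium. DESeq2, RLE scaling and removal of mitochondrial genes gave 3, 2 and 2 over all lists in Banhasasim high, and each gave 2 for Niban partners in Yijung high and 2 for the PAPP-A axis in Yijung medium.

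Same-numbered libraries of an extract group and of the vehicle deviated together with correlations of only -0.10 to 0.18. Whether the numbers pair libraries within a set label was not checked. With the replicate block, Niban partners gave 0 in Aconiti medium and 2 in Yijung high; no other count moved by over 1.5 times.

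Leaving out 1 library, counts over all lists ranged from 0 to 3 in Banhasasim high, 1 to 4 in Bupleuri high and 2 to 10 in Cimicifugae high. Reticulum genes ranged from 1 (without vehicle replicate 1) to 3 in Aconiti medium, and from 1 (without vehicle replicate 3) to 7 (without Citri medium replicate 1) in Yijung medium. Hypoxia targets ranged from 1 to 3 in Aconiti medium, calcium genes from 1 to 4 in Yijung high and 1 to 2 in Yijung medium, and the stress list from 12 to 23 in Yijung high. Niban partners ranged from 2 to 5 in Aconiti high, 0 to 1 in Aconiti medium (0 without any of those 6 libraries), 1 to 2 in Yijung high and 1 to 3 in Yijung medium, and the PAPP-A axis from 3 to 7 in Aconiti high and 0 to 2 in Yijung medium.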
